A study of Mus musculus with 6 samples.

Results

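Zinc finger genes of the mouse Zfp series that end their messages at 2 or more places were described in the developing retina. A gene was included if GENCODE M21 annotates it as protein-coding, if its symbol is Zfp followed by a digit, and if at least 2 poly(A) sites each held 5% or more of its tags over all libraries. A site belonged to a gene when it lay on the same strand, with its 3′ edge inside the gene or within 1000 bases downstream. This rule gave 193 of the 326 Zfp genes that had any site, or 59.2%, while 45.3% of the other coding genes with a site (5853 of 12925) held 2 such sites. The genes were chosen by their tags summed over all stages, so these 2 percentages describe the choice and no test was made of them. Nearest above the limit were Zfp775, whose second site held 5.50% of its tags, and Zfp12 with 5.63%. Nearest below it were Zfp574 with 4.18% and Zfp422 with 3.55%.

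The tags came from PA-seq, a method that copies the 3′ ends of polyadenylated RNA from an oligo(dT) primer, so that each tag marks the place where a message ends. Retinas of C57BL/6J mice were collected at embryonic days E13.5, E15.5 and E18.5 and at postnatal days P0, P6 and P21. There was 1 sample per stage, with no allele or treatment named, and the number of animals or retinas in a sample was not given in the sources used here. Each stage had 2 count columns whose meaning is not given, and they were added and never treated as replicates.

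C2H2 zinc finger proteins form the largest family of transcription factors in mammals, and each finger is a small zinc-bound fold that can contact a few bases of DNA. Many of them also carry a KRAB domain, which recruits the corepressor Trim28 and, through it, histone methyltransferase and heterochromatin proteins to silence transposable elements and genes. A nascent message is cut and polyadenylated downstream of a signal, most often AATAAA or ATTAAA. When a gene has several such sites, the one used sets the length of the 3′ untranslated region (UTR) or, for a site in an intron, can also remove coding sequence. The developing nervous system is known for a move toward longer 3′ UTRs as neurons differentiate.

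The part of the gene that a site choice adds or removes lies between a proximal and a distal site. The ends of 4 such pairs are shown, chosen after their values by stage were seen. None of the 4 passed the main tests of site choice given below. In these libraries, use of the distal site moved in 1 direction at each step in Zfp983, Zfp444 and Zfp41, and up to P6 in Zfp777. Each line gives the last 30 bases of the annotated transcript before the 3′ edge of the site, 5′ to 3′, from GENCODE M21 transcripts on GRCm38, with the poly(A) signal in capitals. Zfp983 lies on the plus strand of chromosome 17 (chr17:21663087-21663116 and chr17:21664935-21664964), and Zfp444 on the plus strand of chromosome 7 (chr7:6190387-6190416 and chr7:6193782-6193811). Zfp777 lies on the minus strand of chromosome 6 (chr6:48024340-48024369 and chr6:48024203-48024232), and Zfp41 on the plus strand of chromosome 15 (chr15:75625265-75625294 and chr15:75629791-75629820). All 8 sites are annotated as 3′ UTR.
Zfp983 proximal: caaaaattcatAATAAAattattaatccca
Zfp983 distal: caaagcAATAAAactgtaactaagaagtgg
Zfp444 proximal: gagagtAATAAAgtgactgactcagtgtgt
Zfp444 distal: aagcctgccccaATTAAAtgttgtccaaat
Zfp777 proximal: atttccttgacAATAAAatggatgaaaaca
Zfp777 distal: tttgataatAATAGAgtaatttttaaaaga
Zfp41 proximal: tattttctcataaaAGTAAAtgtgtttcca
Zfp41 distal: gtcatAATAAAaacattgatataaaaaaat
Both ends of Zfp983 carry the canonical AATAAA. Zfp444 and Zfp777 carry it at the proximal end and a variant at the distal end, and Zfp41 has the opposite arrangement.

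Across the 193 genes, 107 held exactly 2 sites of at least 5%, 50 held 3, 24 held 4, 9 held 5 and 3 held 6. The pair with the most tags was used to describe site choice, and it held a median of 97.6% of a gene's tags. In 155 genes (80.3%) both sites of the pair lay in the same 3′ exon, against 77.8% of the 6144 other genes with a pair. Outside this class, the proximal site lay in an intron in 21 genes (10.9%, against 12.5% of other genes), and 17 genes had other arrangements. The sites of a pair were a median of 1015 bases apart (quartiles 327 and 3167), and those of other genes 1023. In 54 zinc finger genes (28.0%) the distal site lay past the annotated end of the gene, against 18.9% of other genes.

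The sequence before a site could be read for 173 proximal and 162 distal sites. AATAAA stood within 40 bases of the edge in 93 proximal sites (53.8%) and 111 distal sites (68.5%), against 52.0% and 67.2% in other genes. Any of 12 hexamers, searched on the transcribed strand (AATAAA, then ATTAAA, then AGTAAA, then TATAAA, then CATAAA, then GATAAA, then AATATA, then AATACA, then AATAGA, then ACTAAA, then AAGAAA, then AATGAA), was found in 94.8% of proximal sites of zinc finger genes, against 88.7% of those of other genes. Where hexamers overlapped, 1 was counted for the site. These counts describe letters in a window and do not show which signal is used. Because oligo(dT) can also prime on A-rich RNA, the 20 bases after the edge were read where the transcript continued: 8 of 149 proximal sites (5.37%) were A-rich, against 6.02% in other genes, and 3 of 41 distal sites (7.32%), against 3.94% in other genes.

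The signals went with the level of use, as they did in other genes. Where both sites carried AATAAA, the median distal share, the percentage of the pair's tags that fell on the distal site, was 60.5% over 49 zinc finger genes. Where only the distal site carried it the median was 69.1% over 42 genes, and where only the proximal site carried it 42.5% over 21 genes. The corresponding medians of other genes were 59.1%, 73.2% and 46.5%. These are descriptions over genes, with no test.

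The proteins were checked for what the gene symbols promise. In the longest annotated coding sequence, matches to the C2H2 pattern numbered a median of 10 per gene (quartiles 7 and 13), and Zfp142 had the most, with 36. The symbols held in all but 4 genes, Zfp330, Zfp365, Zfp503 and Zfp935, which had no match to this pattern. A KRAB motif was found in 79 of the 193 genes. Of the genes, 47 lay on chromosome 7, 19 on chromosome 17 and 17 on chromosome 8, and 82 lay within 100 kb of another of the 193. Copies in such clusters can share sequence. Of 335 readable site windows, 18, in 13 genes, resembled a transcript of another gene. Not all matches were to zinc finger genes: the proximal site of Zfp568 resembled Adarb1, Map3k12, Poldip3 and Raph1, among 5 genes. The tags of such sites may be split or misplaced, and Zfp444 (distal site), Zfp568 (proximal site) and Zfp729a (proximal site) are the ones named in these results. In 6 genes (Zfp276, Zfp729a, Zfp865, Zfp866, Zfp87 and Zfp935) a site of the pair lay in 2 coding genes.

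The libraries held 3286158 (P0) to 4656153 (E18.5) tags, and the 193 genes took 236586 tags in all. Their totals ran from 98 to 7839 tags per gene with a median of 1020, so the shares of single genes differ in precision. Retinal identity was plain: summed rod photoreceptor markers were 5146 CPM (tags scaled to library size) at P21, against 488 at E13.5, and progenitor markers were 866 at P21, against 3407 at E13.5. The 12 lens markers, crystallins among them, summed to 925, 2504, 390, 3021, 216 and 714 CPM from E13.5 to P21, so the E15.5 and P0 libraries held the most lens RNA. Red blood cell markers summed to 944 CPM at E13.5 and to between 162 and 646 in the later libraries.

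The median distal share of the zinc finger genes showed no steady drift with stage. Over the 173 genes whose pair had 20 or more tags in every library, it was 58.8%, 55.1% and 62.1% in the 3 embryonic libraries and 56.8%, 61.6% and 58.9% in the 3 postnatal ones, in order of age. The same median over 5517 other genes was 58.5% at E13.5 and 58.3% at E15.5, and in the postnatal libraries 60.6%, 61.5% and 62.8%. The median of the zinc finger genes was thus lower at E15.5 and P0 than at the stages on either side. Within single genes, the median differences on either side of E15.5 went the other way, and those around P0 were smaller. From E13.5 to E15.5 the median difference within a gene was 0.406 points, with 95 of 183 genes higher at E15.5, and from E15.5 to E18.5 it was -0.227 points. At P0 minus E18.5 it was -1.17 points, with 42.9% of genes higher at P0, and at P6 minus P0 it was 1.18 points. The distal share of all tags of the 173 pairs summed was 55.8% at E15.5, against 55.7% at E13.5. A share below both neighboring stages at both E15.5 and P0 was found in 28 genes (16.2%, against 14.4% of other genes). The median of the 2 columns taken apart differed by up to 2.55 points in a stage for the zinc finger genes.

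Gene by gene, the distal share at P21 minus that at E13.5 had a median of 1.04 points over the zinc finger genes (95% order-statistic interval -0.789 to 2.85) and of 2.51 points over other genes (2.27 to 2.79). It was above 0 in 98 and below 0 in 75 of the 173 genes, and 56.6% above 0 compares with 62.2% of other genes. The intervals count genes, which are not replicates, and describe these libraries only. Values ran from -33.8 to 39.5 points, with quartiles at -6.36 and 7.18, so single genes moved far in both directions around a center near 0. In 84 of the 173 genes the difference was larger than the gap between the 2 columns at either stage. No such count was made for other genes. The columns were not treated as replicates, so their gap does not measure spread between samples.

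Pairs in the same 3′ exon were split by distance. For sites over 1500 bases apart the median P21 minus E13.5 difference was 3.34 points in 44 zinc finger genes and 5.76 in 1111 other genes. At 300 to 1500 bases it was 0.306 points in 56 zinc finger genes and 2.76 in 1967 other genes. Under 300 bases it was 0.341 points in 39 zinc finger genes and 0.489 in 1266 other genes. The median difference was thus the highest of the 3 distance classes for sites over 1500 bases apart in both sets, but in the zinc finger genes its 95% order-statistic interval, -0.349 to 6.39 points, includes 0. Genes with a KRAB motif had a median of 0.496 points (70 genes) and those without one 1.46 points (103 genes), a difference that was not tested.

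Most genes kept the same main site throughout. The distal site held over 50% of the pair in all 6 libraries in 84 of 173 genes (48.6%, against 49.2% of other genes), and the proximal site did so in 54 genes (31.2%, against 31.7%). The main site changed at least once in 35 genes (20.2%, against 19.1%). The spread between the highest and lowest stage had a median of 13.7 points in the zinc finger genes and 12.5 in other genes. The pairs tested held a median of 145 tags per library in zinc finger genes and 215 over all genes, and the part of depth in the spread was not tested.

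Moves of 20 points or more between stages were counted. From E18.5 to P0, 12 of 177 zinc finger genes with 20 or more tags in both libraries moved by 20 points or more toward the proximal site (6.78%), against a background of 3.52% of all genes, and 1 moved toward the distal site (0.565%, background 2.45%). From P0 to P6, 7 of 175 moved distally (4%, background 2.07%) and 0 proximally (background 1.21%). From E13.5 to E15.5, 9 of 183 moved proximally (4.92%, background 2.15%) and 4 distally (2.19%, background 1.36%). From E15.5 to E18.5, 10 of 185 moved distally (5.41%, background 3.07%) and 2 proximally (1.08%, background 1.31%). From P6 to P21 the counts were 6 and 5 of 187 (3.21% and 2.67%, background 2.16% and 1.47%), and at P21 against E13.5 they were 8 and 5 of 183 (4.37% and 2.73%, background 7.31% and 2.99%). When P6 was set directly against E18.5, 4 of 186 moved proximally and 1 distally (2.15% and 0.538%, background 1.76% and 2.12%). When E18.5 was set against E13.5, 5 of 185 moved distally and 2 proximally (2.70% and 1.08%, background 1.64% and 1.07%). P0 was also the shallowest library, and the genes that moved at that step had a median of 100.5 tags at the pair, against 157 over all zinc finger genes compared. The part of lens RNA and of depth in these moves was not tested.

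**Figure D1:**
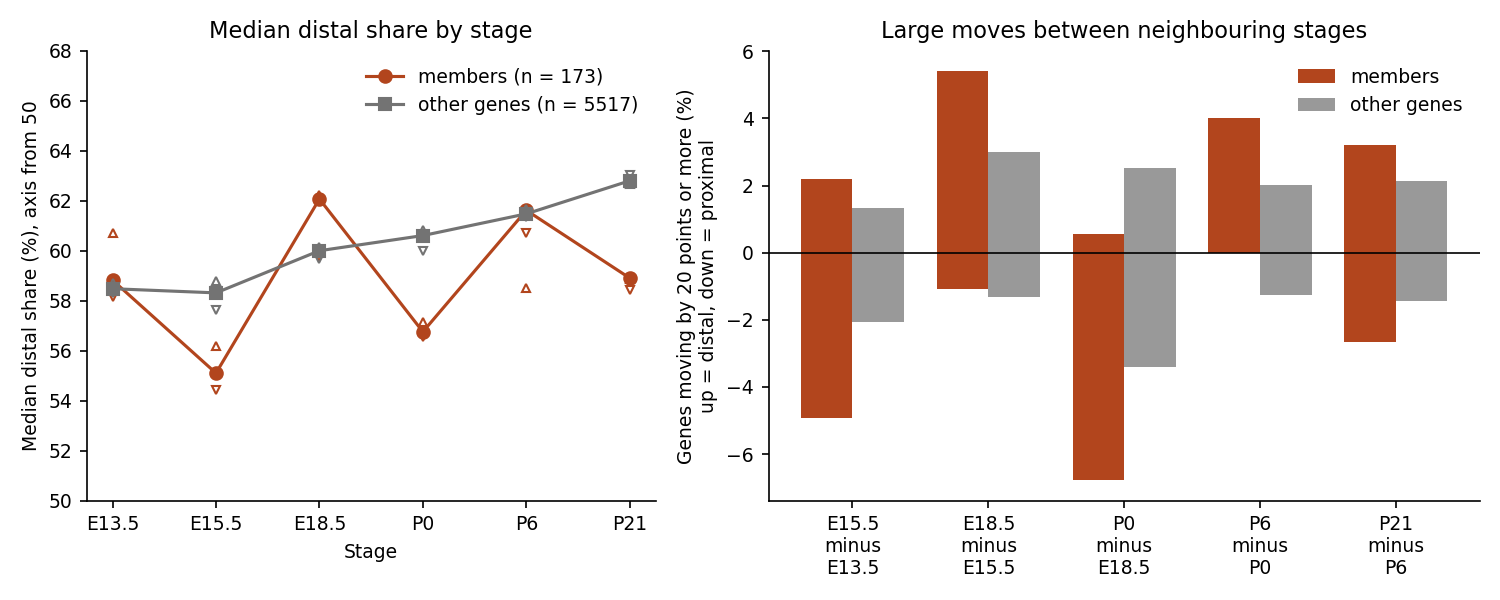
Left, median distal share (percent of pair tags at the distal site, axis starting at 50) by stage for the 173 zinc finger genes ("members", filled circles) and 5517 other genes (squares), with open triangles for the first and the second count column taken alone. Right, percentage of genes whose distal share moved by 20 points or more between neighboring stages, upward bars for distal and downward bars for proximal moves. The median of the zinc finger genes is 55.1% at E15.5 and 56.8% at P0, and that of other genes ends at 62.8% at P21.

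Zfp326, Zfp266 and Zfp280d had the widest swings in these steps and were chosen after their values were seen. Zfp326, a nuclear protein known in human for coupling transcript elongation to splicing, had distal shares of 65.7%, 38.5%, 69.6%, 27.5%, 50.2% and 59.4% from E13.5 to P21, on 109 to 286 tags. It was low at E15.5 and P0 in both columns. Zfp266 stood at 14.0%, 6.94%, 64.8%, 19.6%, 19.1% and 9.09%, with 105 distal tags at E18.5 and 4 to 12 in the other libraries. Zfp280d had 115 distal tags at E18.5, against 8 to 18 in the other libraries. Its shares were 62.5%, 34.6%, 92.7%, 38.1%, 38.3% and 34.5% from E13.5 to P21. For these last 2 genes the share was highest at E18.5, where the 2 columns were at most 3.92 points apart. At another stage the columns of Zfp280d differed by up to 39.4 points. Without replicates of the stage, the high E18.5 values cannot be told apart from a feature of that library.

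Site choice was tested with edgeR's diffSpliceDGE over all genes with a pair, with stage order from E13.5 to P21 as a straight line. Of the 190 zinc finger genes tested, 97 had a fitted change toward the distal site and 93 toward the proximal site, and 0 passed a Benjamini-Hochberg adjusted p of 0.05 in the test per site, where 0.525% of all genes passed (0.366% distal, 0.159% proximal). At an unadjusted p under 0.05 there were 11 genes (5 distal, 6 proximal), or 5.79%, against a background of 8.26%. In edgeR's joint test of both sites, added after the data were seen, again 0 passed, where 2.61% of all genes did (1.86% distal, 0.748% proximal). Here 25 genes had an unadjusted p under 0.05 (13 distal, 12 proximal), or 13.2%, against 16% of all genes (11.8% distal, 4.23% proximal). A quasi-binomial logistic model also called 0. The fitted log2 change of the distal over the proximal site had a median of 0.03 in the zinc finger genes and of 0.24 over all genes. It ran from -2.48 to 2.36, and 43 genes were beyond 1 in either direction.

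The genes described next are those with the largest difference in distal share between the late stages (P6 and P21) and the early ones (E13.5 and E15.5), among those with 20 or more tags at the pair in every library. None passed the adjusted threshold, so their values are given as a description. Of the 173 genes, only Zfp444 and Zfp983 had a higher distal share at each of the 5 steps (1.16%, against 1.67% of other genes). Only Zfp369 and Zfp41 had a lower one at each step (1.16%, against 0.544%). Fitted changes are log2 changes of the distal over the proximal site across the 6 stages, with standard errors (SE). Adjusted p values are those of edgeR's joint test, which was added after the data were seen. In edgeR's test per site, which was planned, the adjusted p values were far higher. They were 0.350 for Zfp532, 0.425 for Zfp444, 0.581 for Zfp961 and 0.642 for Zfp68, and 0.350 was the smallest of all zinc finger genes tested.

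Zfp983, a KRAB gene, had the largest such difference. Its distal site, 1848 bases past the proximal one, held 35.3%, 50.8%, 65.9%, 66.7%, 70.2% and 74.8% of pair tags from E13.5 to P21. The share was higher at each stage than at the stage before, and the 95% Wilson intervals of P21 (66.6% to 81.5%) and E13.5 (21.5% to 52.1%) did not overlap. Only 34 tags stood behind the E13.5 value, and the fitted change was 2.12 ± 0.73 (SE) with an adjusted p of 0.154.

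Zfp444, the mouse counterpart of a human SCAN-domain zinc finger gene, had the same shape on far more tags. Its distal share was 18.7%, 28.0%, 32.4%, 37.0%, 39.6% and 47.7%, on 486 to 1376 tags per library. Each stage was above the one before, and each column alone kept that order. The fitted change was 1.73 ± 0.46 (SE), with an adjusted p of 0.0674 by the joint test, and it passed at 0.0447 to 0.0486 without P6, with sites of at least the median score, or with all sites of the gene tested. The distal site resembles transcripts of 108 other genes over the bases before its edge, so some of its tags may belong elsewhere.

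Zfp961 and Zfp68 had low distal shares that were higher late. Zfp961, whose distal site lies 16836 bases downstream in an annotated intron, had distal shares of 6.45%, 14.2%, 16.0%, 18.0%, 26.2% and 26.0%. The fitted change was 2.11 ± 0.54 (SE) with an adjusted p of 0.0600. Zfp68 stood at 10.4%, 11.9%, 12.3%, 8.06%, 21.1% and 30.1%, so that P6 and P21 stood above the other 4 libraries. Its fitted change was 1.72 ± 0.52 (SE) with an adjusted p of 0.101. The columns of Zfp961 differed by 14.2 points at E15.5 and by 12.1 points at P21. In its first column alone the share was 19.8% at P21, against 20.9% at E15.5. In the second it was 31.9% at P21, against 6.67% at E15.5.

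The other 4 genes with higher distal use at late stages were less steady. Zfp91, an E3 ubiquitin ligase in human cells that activates the kinase NIK, had shares of 55.7%, 47.1%, 60.2%, 54.7%, 67.7% and 70.0%. Zfp235 had 67.4%, 44.4%, 64.4%, 41.5%, 63.3% and 83.6% on 41 to 60 tags, and Zfp39 had 38.2%, 29.5%, 38.8%, 28.2%, 37.4% and 58.9%. All 3 were lower at E15.5 and P0 than at the stages on either side, and the Zfp235 and Zfp39 changes turned negative without P21 (-0.22 and -0.081). The fitted changes without E15.5 and P0 were 0.92, 0.81 and 0.80 for Zfp91, Zfp235 and Zfp39, and with all libraries 1.06, 1.10 and 0.87. Zfp935 had 54.5%, 68.4%, 81.4%, 78.6%, 71.4% and 87.1%, on sites shared by 2 genes.

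Among genes with lower distal shares late, Zfp532 had the smallest adjusted p of all 190. Zfp532 has an intronic proximal site 51473 bases before the distal one. Its distal share was 87.7%, 89.4%, 84.2%, 83.9%, 77.0% and 67.9%, on 393 to 805 tags, and the intronic site therefore took 32.1% of the pair at P21, against 12.3% at E13.5. The 2 columns were at most 4.06 points apart at any stage. The fitted change was -1.80 ± 0.45 (SE) with an adjusted p of 0.0575, which became 0.0474 without P0, 0.0436 in the first columns alone and 0.0496 with DESeq2 size factors.

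In Zfp41 and Zfp777 both sites lie in the 3′ UTR. Zfp41 had distal shares of 25.4%, 23.1%, 18.1%, 12.9%, 11.8% and 8.89% on 180 to 696 tags. It was lower at each stage than at the one before, and the fitted change was -1.78 ± 0.76 (SE) with an adjusted p of 0.269. Zfp777, a KRAB gene whose sites are only 137 bases apart, had 52.9%, 50.8%, 43.7%, 40.7%, 33.6% and 33.6%. Its main site was thus the distal one at E13.5 and E15.5 and the proximal one from E18.5 on, with a fitted change of -1.28 ± 0.64 (SE) and an adjusted p of 0.368. In these 2 genes the proximal site carries AGTAAA (Zfp41) or AATAAA (Zfp777), as printed above.

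The other 5 genes of this direction had late or uneven drops. Zfp60 had distal shares of 60.8%, 77.3%, 71.1%, 74.0%, 66.3% and 45.2%, and Zfp995 had 91.0%, 85.4%, 87.8%, 78.6%, 85.7% and 62.2%, both lowest at P21. Zfp354a, a kidney-enriched KRAB repressor first known as Kid-1, had 66.7%, 38.6%, 48.7%, 48.2%, 44.2% and 32.8% for sites 103 bases apart. Zfp568, a KRAB protein that silences a placental Igf2 transcript in mouse, had 77.3%, 78.2%, 83.3%, 73.9%, 63.4% and 67.6%. Its proximal site has none of the 12 hexamers, is followed by A-rich sequence and resembles transcripts of 5 other genes. The part of priming on A-rich RNA in its shares was not tested. Zfp385b had 82.9%, 70.5%, 70.2%, 61.6%, 60.8% and 67.9%, with the proximal site in an intron 180679 bases upstream.

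**Figure D2:**
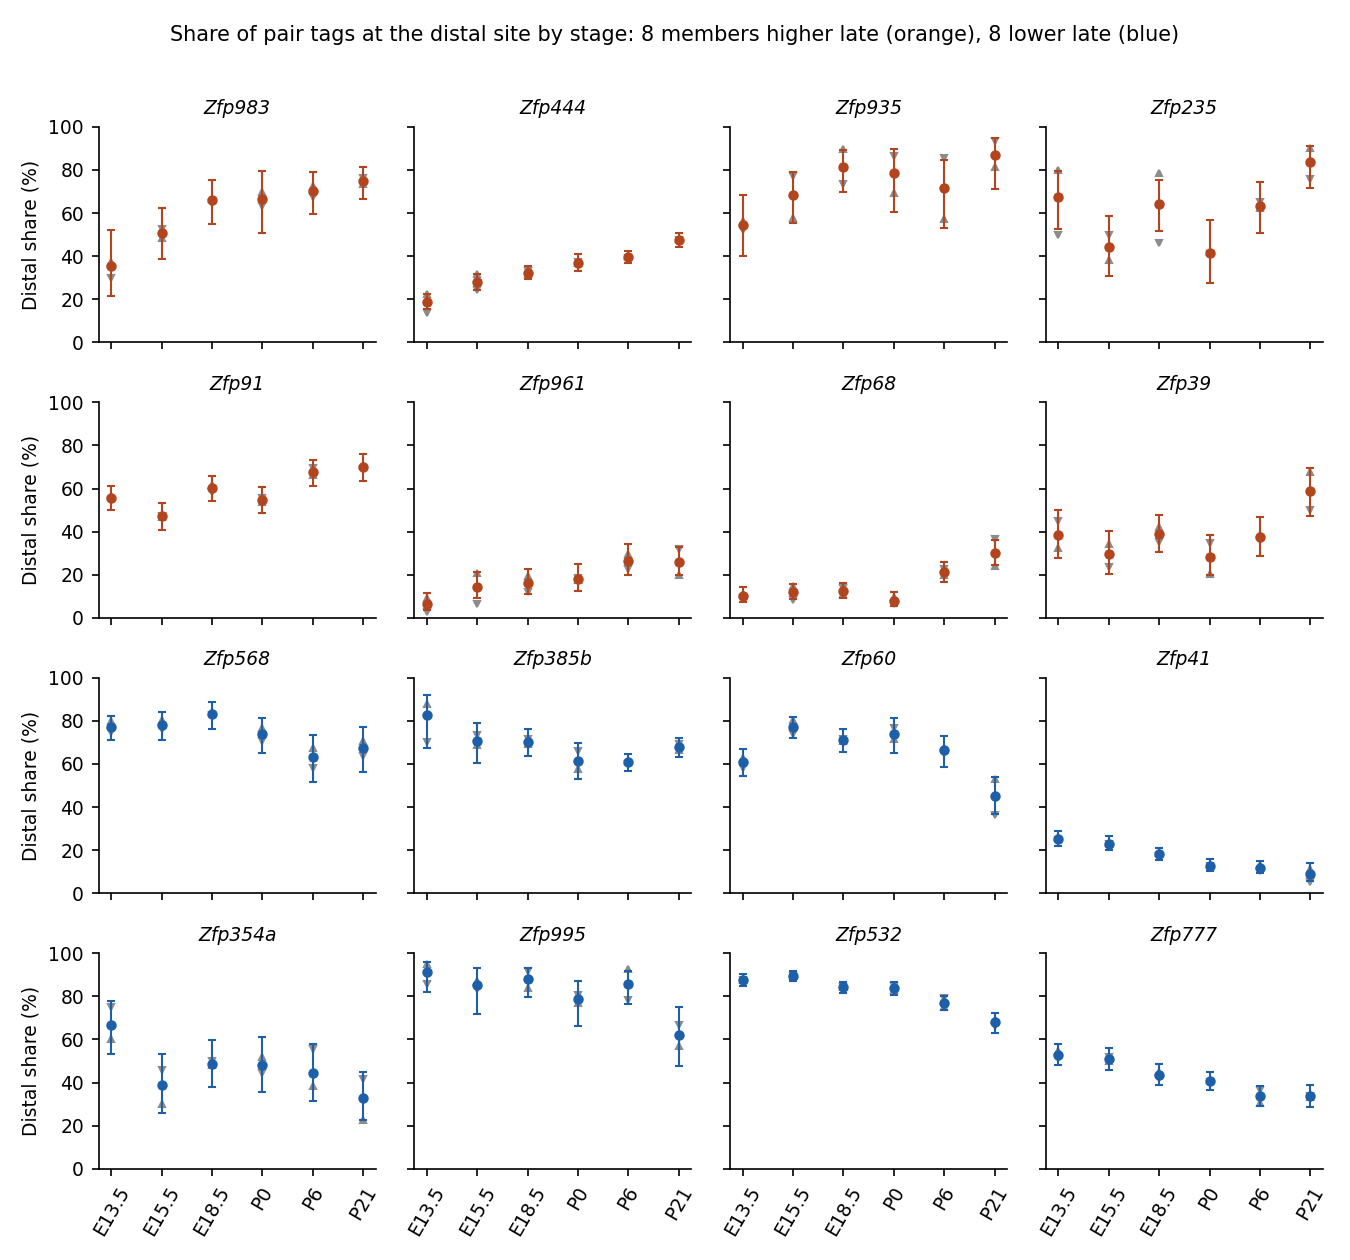
Distal share (percent of the pair's tags at the distal site) by stage for 8 genes with higher values late (orange) and 8 with lower values late (blue). Points are the single sample of a stage with 95% Wilson intervals, which cover counting error only, and grey triangles are its 2 count columns. Zfp444 stands at 47.7% at P21, against 18.7% at E13.5, with narrow intervals, and Zfp41 ends at 8.89%.

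A pair hides what happens at other sites, and 86 of the genes had 3 or more. When all sites of at least 5% were tested, the test per site called 1 of 190 zinc finger genes, Zfp207 (0.526%, against 1.3% of all genes). The joint test called 7 (Zfp202, Zfp207, Zfp407, Zfp444, Zfp532, Zfp606 and Zfp961), or 3.68%, against 5.63% of all genes. Zfp207, which encodes the spindle and kinetochore protein BuGZ, is the most abundant of the 193 genes, with a mean of 332 CPM. Its pair lies 109 bases apart, and the distal share of that pair stayed between 44.6% (P21) and 50.3% (E18.5). The last of its 4 sites, 9626 bases further on and past the annotated gene end, held 11.1%, 9.15%, 15.0%, 16.1%, 24.6% and 35.1% of tags at the gene's sites. From E15.5 on each stage was above the one before, and the intervals of P21 (32.1% to 38.2%) and E13.5 (9.45% to 12.9%) did not overlap. The fitted change of the last over the first of the 4 sites was 2.14 on the log2 scale. The smallest adjusted p among the 4 sites was 0.0113 by edgeR's test per site. Total Zfp207 tags changed by -0.29 ± 0.20 (SE, log2) with an adjusted p of 0.291 and did not pass the abundance test. The 2 sites of its pair end as follows and are shown to mark where the pair lies, on the plus strand at chr11:80396108-80396137 and chr11:80396217-80396246, both in the 3′ UTR, with the signal in capitals.
Zfp207 proximal: ctgttaaacttcattgtAATAAAatgagac
Zfp207 distal: tgtccacgtAATAAAactcagttaccaata

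**Figure D3:**
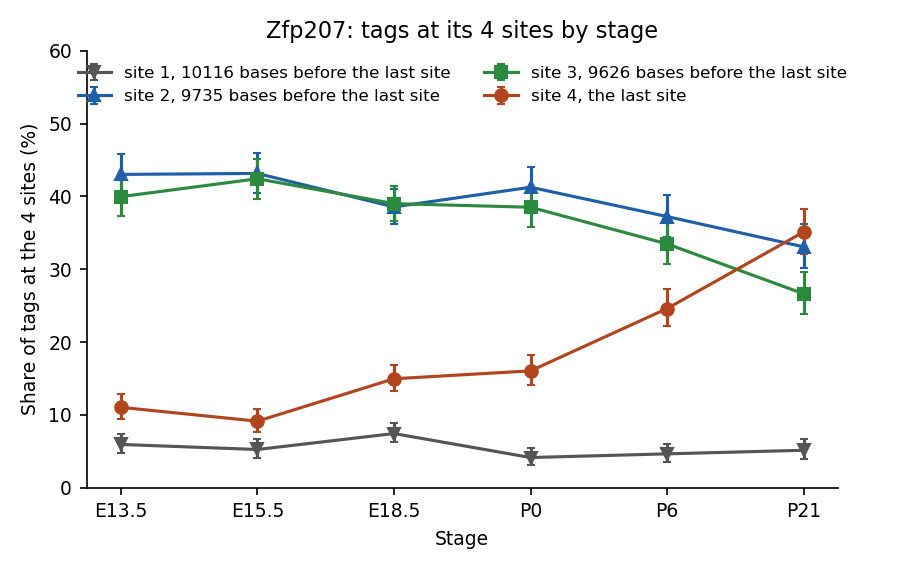
Share of Zfp207 tags at each of its 4 sites (percent of tags at the sites) by stage, with 95% Wilson intervals that cover counting error only. The last site reaches 35.1% at P21, against 11.1% at E13.5, while the site 9735 bases before it holds 33.1% at P21, against 43.0% at E13.5.

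In Zfp202 the last of 3 sites, past the gene end, held 31.7%, 18.1%, 10.8%, 6.25%, 5.61% and 5.80% of tags from E13.5 to P21, and the joint adjusted p was 0.00831. The last-site share was highest at E13.5, on 39 tags, and 4 tags were left at P21. In Zfp407 and Zfp606 the first site is intronic. It held 11.7% of tags at P21, against 1.65% at E13.5, in Zfp407 (17 and 3 tags), and 11.2% at P21, against 1.08% at E13.5, in Zfp606 (27 and 3 tags). Both differences were toward an early, intronic end, as in Zfp532, and rested on few tags.

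Of the other 4 most abundant genes, Zfp444 is described above. Zfp706, a single-finger protein that promotes the exit of mouse embryonic stem cells from self-renewal, had a mean of 257 CPM and distal shares of 74.8%, 79.6%, 77.6%, 77.5%, 82.1% and 84.8%. Zfp292, at 190 CPM, had 59.8%, 54.6%, 57.4%, 52.6%, 56.5% and 52.0%. Zfp24, a SCAN-domain factor needed for myelination in mouse, had 162 CPM and 23.5%, 25.4%, 21.5%, 15.6%, 18.5% and 16.5%. None of the 3 passed the adjusted threshold, although the 95% Wilson intervals of Zfp706 at P21 (82.3% to 87.1%) and E13.5 (72.0% to 77.4%) did not overlap, and the share was highest at P21 in Zfp706, lowest at P21 in Zfp292 and lowest at P0 in Zfp24.

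Abundance, the sum of a gene's tags at all its sites, passed its test more often than site choice did. With edgeR's quasi-likelihood test on stage order and an adjusted p of 0.05, 19 of the 193 genes rose (9.84%, against 17.2% of all genes) and 10 fell (5.18%, against 11.8%), while 164 did not pass. The summed level of all 193 was almost flat, at 9692, 9850, 10348, 9912, 10232 and 9749 CPM. The quartiles of the fitted log2 change over the 6 stages were -0.41 and 0.50 in the zinc finger genes and -0.65 and 0.85 over all genes. In bulk retina, a change in the number of cells of a type and a change in RNA per cell cannot be told apart. A KRAB motif was found in 6 of the 19 that rose and 1 of the 10 that fell, and in 79 of all 193.

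Zfp804b had the largest rise but few tags. Its level was 0.780, 1.03, 1.25, 0.621, 8.87 and 12.7 CPM, from 3, 4, 6, 2, 37 and 48 tags, and the fitted change was 4.60 ± 0.99 (SE, log2), with an adjusted p of 0.0146. The 4 libraries up to P0 were at or near the 3-tag floor, P6 and P21 stood above them, and without P21 the call was lost (3.53, adjusted p 0.0901). Its human relative ZNF804A is known from psychiatric genetics. Both sites of its pair lie in introns, so the tags may not come from the full-length message.

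Zfp385b rose as well, at 9.36, 23.1, 43.8, 41.0, 143 and 113 CPM. The fitted change was 3.70 ± 0.54 (SE, log2), adjusted p 0.00484, and P6 and P21 were higher than all libraries before them. ZNF385B in human is a zinc finger protein tied to p53-dependent apoptosis in B cells. Zfp365, a centrosomal protein that binds DISC1 in neurons and has no C2H2 match, had 11.4, 16.4, 15.4, 19.9, 44.3 and 96.1 CPM. Its fitted change was 2.95 ± 0.46 (SE, log2), adjusted p 0.00543, and without P21 it no longer passed (1.71, adjusted p 0.0550).

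Zfp654 had 21.1, 25.7, 36.7, 20.2, 78.1 and 94.0 CPM (2.19 ± 0.51 SE, log2, adjusted p 0.0191), and Zfp354b 2.60 CPM at E13.5 and 14.6 CPM at P21 (2.05 ± 0.57 SE, log2, adjusted p 0.0326). Both lost the call when any of several single libraries was left out, among them E13.5, E15.5 and P21, and Zfp354b also without E15.5 and P0 together (adjusted p 0.0565). Zfp444, described above for its site choice, also rose, with 250 CPM at P21, against 129 CPM at E13.5 (1.18 ± 0.28 SE, log2, adjusted p 0.0208). It was the 1 gene among the 16 named for site choice with both a steady distal gain and a rise past the threshold. Both draw on the same tags: its distal site held 447 tags at P21, against 91 at E13.5, and its proximal site 491, against 395. Some of those distal tags may belong elsewhere, as given above. Rod markers were higher at late stages, as given above, and their part in these rises was not tested.

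Among genes that fell, Zfp710 had the largest change, at 52.8, 37.2, 26.5, 23.3, 12.7 and 6.64 CPM. Each stage was below the one before, and the fitted change was -2.76 ± 0.37 (SE, log2), adjusted p 0.00389. Zfp423, a multi-finger partner of SMAD and EBF proteins needed for cerebellar development in mouse, had 130, 115, 86.8, 73.3, 64.5 and 44.1 CPM, again in unbroken order. Its fitted change was -1.50 ± 0.19 (SE, log2), adjusted p 0.00351. Neither call was lost when any 1 library was left out.

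Zfp697, Zfp568 and Zfp593 also fell. Zfp593, whose yeast counterpart Bud20 acts in the export of ribosomal subunits, had 31.6 CPM at P21, against 90.5 CPM at E13.5 (-1.41 ± 0.35 SE, log2, adjusted p 0.0242). Zfp568 had 19.6 CPM at P21, against 56.2 CPM at E13.5 (-1.56 ± 0.35 SE, log2, adjusted p 0.0160), and Zfp697 had 9.56 CPM at P21, against 41.9 CPM at E13.5 (-1.89 ± 0.53 SE, log2, adjusted p 0.0347). Each of the 3 lost the call without P21 (adjusted p 0.114, 0.0505 and 0.156 for Zfp593, Zfp568 and Zfp697). The call of Zfp593 was also lost without E15.5 (0.0630), without P6 (0.0545) and without E15.5 and P0 together (0.0546), and that of Zfp568 without E13.5 (0.105). The call of Zfp697 was also lost without E15.5 (0.0793), without P6 (0.0696), without E15.5 and P0 together (0.0847) and in the first columns alone (0.0648). Progenitor markers were lower at late stages, as given above, and their part in these falls was not tested.

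**Figure D4:**
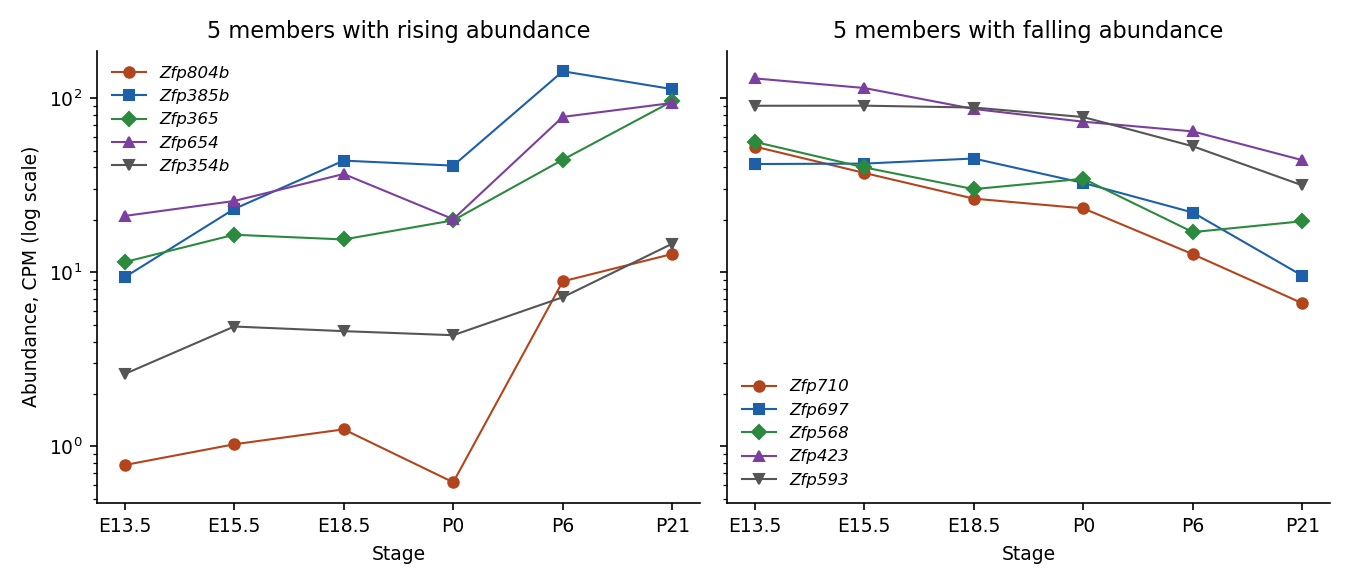
Abundance in CPM (log scale) by stage for the 5 genes with the largest rise past the threshold (left) and the 5 with the largest fall (right), 1 sample per point. Zfp385b and Zfp365 reach 113 and 96.1 CPM at P21, and Zfp710 drops to 6.64 CPM.

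Genes that changed in abundance did not share a direction of site choice. Of the 18 rising genes with a tested pair, 10 had a fitted change toward the distal site, and of the 10 falling genes 4 did. Zfp787 rose by 0.96 ± 0.17 (SE, log2, adjusted p 0.00854) with a fitted site change of -1.51, and Zfp277 fell by 1.38 on the log2 scale (adjusted p 0.0153) with a site change of 1.45. These 2 are examples of opposed directions, and were chosen after their values were seen.

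**Figure D5:**
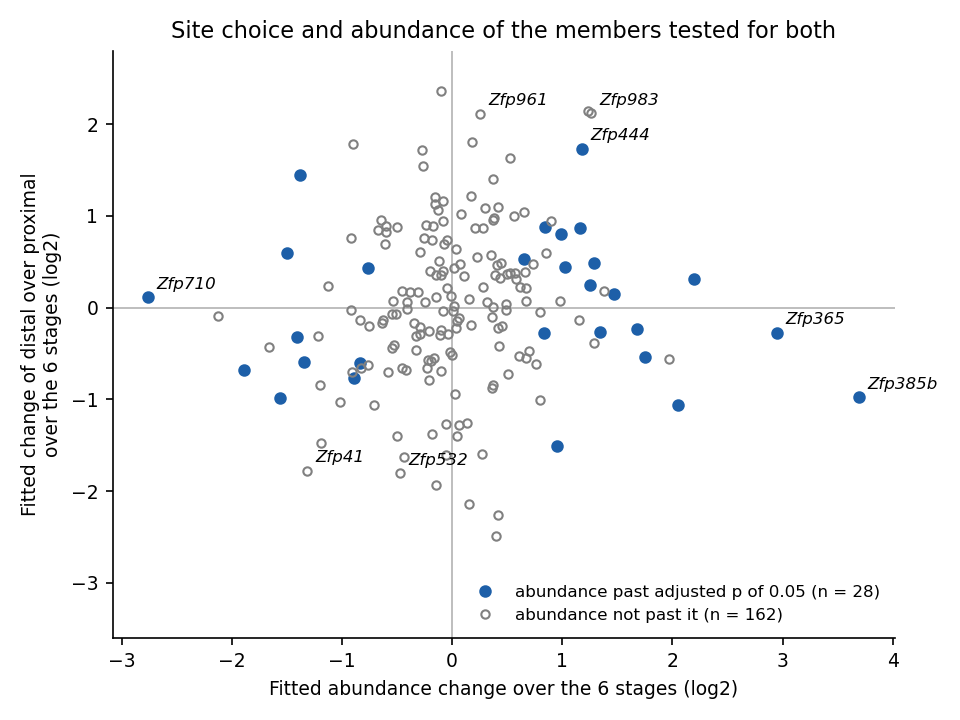
Fitted log2 change of distal over proximal tags (vertical) against fitted log2 change in abundance (horizontal) over the 6 stages for the 190 zinc finger genes tested for both. Filled points passed an adjusted p of 0.05 in abundance (28 genes) and open points did not (162). Filled points lie above and below 0 on the vertical axis, with Zfp444 at 1.73 and Zfp385b at -0.98.

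Part of the machinery through which KRAB proteins act was lower late in development. Of 15 measured genes of the corepressor machinery, 0 rose and 5 fell in edgeR's test, where 17.2% of all genes rose and 11.8% fell (0 and 7 at an unadjusted p under 0.05), with a median fitted change of -0.92, against 0.00 over all genes. Trim28, the corepressor that KRAB binds, had 305 CPM at P21, against 687 CPM at E13.5 (-1.04 ± 0.29 SE, log2). Setdb1, the histone methyltransferase that it recruits, changed by -0.92 ± 0.25 and Cbx5, the heterochromatin protein HP1 alpha, by -1.30 ± 0.28. The histone deacetylase Hdac1 changed by -1.14 ± 0.18 and the chromatin remodeler Smarcad1 by -1.57 ± 0.48 (all SE, log2). For the 8 of these genes with a tested pair, 0 passed in site choice by either edgeR test (background 0.525% per site and 2.61% jointly), and 1 had an unadjusted p under 0.05 in the joint test. The part of progenitor cells in these falls was not tested either. Of the 79 genes described here in which the KRAB motif was found, 6 rose and 1 fell, where 17.2% of all genes rose and 11.8% fell.

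Among 21 genes for the proteins that cut and polyadenylate messages, Pcf11, a termination factor, rose and Cpsf3, the endonuclease, fell (backgrounds 17.2% and 11.8%), and the median change was -0.22. Sympk, the scaffold symplekin, was the 1 of 13 with a tested pair that passed in site choice (-3.75, log2, adjusted p 0.0197 per site), toward its proximal site, against a background of 0.525% per site. In the joint test, 5 of the 13 had an unadjusted p under 0.05, where 16% of all genes did. Of other zinc finger families, 3 of 39 Zbtb genes rose and 2 fell, 1 of 8 Zscan genes rose (Zscan18) and 1 of 10 Zkscan genes rose (Zkscan2), against the same backgrounds in abundance. In site choice by the joint test, 0 of 21 Zbtb, 0 of 7 Zscan and 1 of 6 Zkscan genes passed (Zkscan8, -2.77, log2, adjusted p 0.0202; background 2.61%), and at an unadjusted p under 0.05 the counts were 0, 0 and 1. Of 133 measured Zfp genes with fewer than 2 sites of 5%, 5 rose and 10 fell, where 17.2% of all genes rose and 11.8% fell, with a median abundance change of -0.23.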

How the data were processed

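The authors' deposited table held whole-number counts of tags for 32688 poly(A) sites in 12 columns, and per the file headers 1 enrichment score per site. Per the submitters' processing notes, BWA 0.7.5a-r405 and mm10 were used. Site clustering, duplicate removal, the score and the 2 columns per stage are not explained in the sources used here. Columns of a stage were added. Of the sites, 29105 were given to GENCODE M21 genes. The genes and lists were chosen with earlier results of these data known.

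Site choice was tested with edgeR 4.0.16 in R 4.3.3 (diffSpliceDGE, pair mean of at least 20 tags per library) and abundance with its quasi-likelihood test (TMM; genes with 1 CPM or more in 2 or more libraries), both on linear stage order with 4 residual degrees of freedom. Calls needed a Benjamini-Hochberg adjusted p of at most 0.05, taken over all sites or genes tested. SE is the change divided by the root of F, from the joint test for site choice. With 1 sample per stage, departures from a line count as spread, which p values measure. Scripts were tested on simulated data.

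Named genes were up to 8 per direction by the difference in distal share between the last and first 2 stages (pairs with 20 or more tags in every library), the 5 most abundant, up to 5 rising and 5 falling, list genes past a threshold, those at the 5% limit and those with shared sites. Shares have 95% Wilson intervals; 3 tags equal 0.644 to 0.913 CPM. Since duplicate removal is not explained, PCR copies may be among the tags, and these intervals and floors reflect counting error alone. Similarity was searched with BLAST 2.17.0. Alternatives include DESeq2 1.42.0, other filters and each stage left out.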

Additional observations from a re-analysis of the deposited data

How the results depend on the processing

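Site choice per site gave 0 called zinc finger genes under every alternative run except all sites of at least 5%, which gave 1, while over all genes the count was 33 and ran from 0 to 82. The joint test, added after the data were seen, gave 0, a range of 0 to 5 when 1 stage was left out (5 without P0: Zfp532, Zfp68, Zfp639, Zfp746 and Zfp961), 1 in the first columns (Zfp532), 1 in the second columns (Zfp961), 1 with DESeq2 size factors, 1 with pairs of at least 50 tags, 1 without E15.5 and P0 (Zfp383, also added later), 2 with days after conception, 2 with sites of at least the median score, and 7 with all sites. Over all genes it called 164, from 2 to 354. Rising abundance calls numbered 19, with 5 to 25 when 1 stage was left out, 0 for postnatal against embryonic stages and 13 without E15.5 and P0. Falling calls numbered 10, with 2 to 15 when 1 stage was left out, 16 with days after conception, 0 for postnatal against embryonic stages and 4 without E15.5 and P0. Among the fits that left out 1 stage, the lowest counts were without P21 (5 and 2). The cause was not tested. DESeq2's likelihood ratio test gave 25 and 13. Fitted site changes turned direction without P21 for Zfp235 (-0.22 to 1.96 over the 6 leave-one-out fits), Zfp39 (-0.081 to 1.26) and Zfp60 (-1.76 to 0.086), and for Zfp385b (0.24) and Zfp995 (2.16) when sites past the gene end were dropped, which replaces the pair. The median P21 minus E13.5 difference of 1.04 points stayed between 0.455 and 1.22. No paired analysis was possible because each stage has 1 sample and no replicate numbers are shared. Depth limits the single shares: tested zinc finger pairs held a median of 145 tags per library, against 215 over all genes.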

Other observations

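The relatives of Zfp385b, which lie outside the 193 genes because they hold fewer than 2 sites of 5%, also rose in abundance by edgeR's quasi-likelihood test, and were looked at after their values were seen. Zfp385a had 165, 172, 161, 204, 262 and 378 CPM from E13.5 to P21 (1.17 ± 0.24 SE, log2, adjusted p 0.0116). Zfp385c had 2.60, 8.47, 24.0, 32.0, 45.5 and 42.7 CPM (3.67 ± 0.75 SE, log2, adjusted p 0.0124). Of the 3 genes, Zfp385a was present at the highest level at each stage, and Zfp385b and Zfp385c were near the bottom of their range at E13.5.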
